A study of Mus musculus with 24 samples.

Results

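Of the 20961 genes counted in mouse heart, 13 were low only in NZO/HlLtJ: Zfp607, Rsl1, Tceanc2, Ifi205, Hsbp1l1, Fbxo44, Fggy, Slc16a7, Igfals, Nxpe4, Crnde, AI506816 and RP23-225M4.1. They were chosen from the measured levels themselves. A gene had to average at least 1 CPM (counts divided by the library's total count and multiplied by 1000000) in both C57BL/6J and CAST/EiJ, and its NZO/HlLtJ mean had to be at most 1/4 of the lower of those 2 means. Of the 12350 genes that reached the level in both strains, 25 met the ratio (0.202%). Of these, 12 were left out by symbol, since the choice passes over predicted genes, several gene classes named by prefix and 3 further symbols, which are not reported here. Since strain means chose the 13 genes, all differences between strains are given for them as description, with no test.

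RNA was sequenced from whole hearts of male and female mice of the inbred strains C57BL/6J, a common laboratory strain, CAST/EiJ, bred from wild castaneus mice, and NZO/HlLtJ, which grows obese through many loci. The mice, labelled wild type, ate feed with fiber and either 10% or 44% fat, the second being the high fat, high sugar diet, from 6 weeks of age, and hearts were collected at 15 weeks. Each combination of strain, sex and diet had 2 libraries, so that each strain had 8, and total counts ran from 30205073 to 52254058 per library. The labels do not state whether the 2 libraries of a group came from different animals, so the p-values reflect only how these libraries vary, which may be technical.

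An inbred strain is homozygous across its genome for one set of alleles, so that transcripts can stand at very different levels in the same tissue of different strains. The 13 genes do not form one known pathway. They include genes for nuclear proteins (the zinc finger genes Zfp607 and Rsl1, the elongation-factor-like Tceanc2 and the interferon-inducible Ifi205), a ubiquitin ligase subunit (Fbxo44), genes of sugar phosphorylation, monocarboxylate transport and insulin-like growth factor carriage (Fggy, Slc16a7 and Igfals), and RNAs without a known protein.

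In all 13 genes every NZO/HlLtJ library lay below every one of the 16 libraries of the other strains, a pattern shown by 281 of the 12350 genes at the same level (2.28%). Since the choice was made on this contrast, nothing is read from that count. The NZO/HlLtJ mean was between 0% and 24.96% of the lower other mean, with a median of 16.3%. The lower mean was that of C57BL/6J for 7 of the genes and that of CAST/EiJ for 6. According to the gene annotation 10 encode proteins and 3 do not. The 13 genes lie on 10 chromosomes, and the closest starts on one chromosome, those of Fggy and Tceanc2, are 11.6 Mb apart. In RNA of whole tissue, fewer cells of a type and less RNA per cell cannot be told apart.

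**Figure D1:**
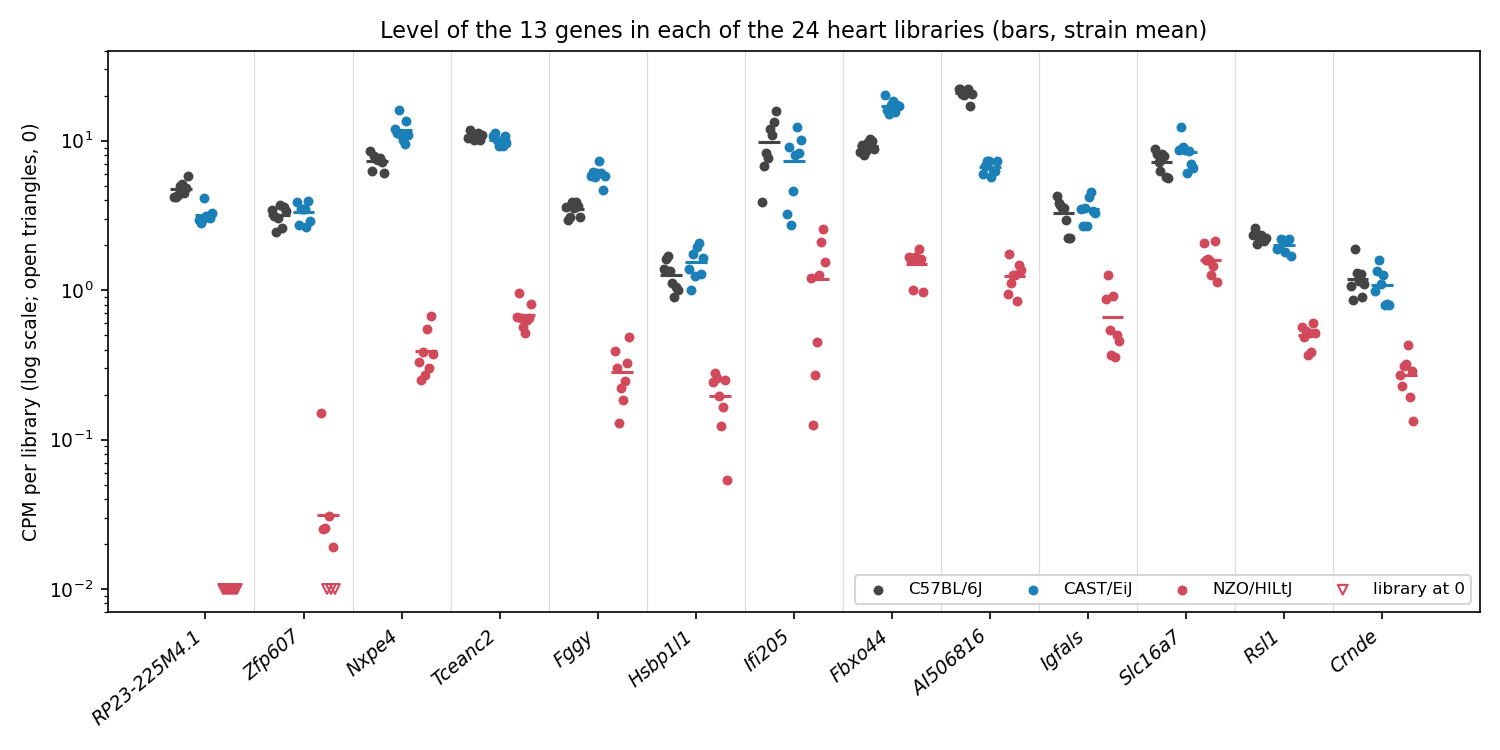
Levels of the 13 genes in each of the 24 libraries, in CPM on a log axis, colored by strain, with bars at the strain means and open triangles for libraries at 0. The NZO/HlLtJ points lie under all others for each gene, with the widest separation for RP23-225M4.1 and Zfp607 and the narrowest for Ifi205.

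Zfp607 (ENSMUSG00000020420, GRCm38 chromosome 7, 27857527 to 27880825, plus strand), which encodes a KRAB zinc finger protein of a class that mostly represses transcription, had almost no reads in NZO/HlLtJ. The C57BL/6J libraries ran from 2.45 CPM through a median of 3.27 to 3.71, and those of CAST/EiJ from 2.64 through 3.49 to 3.92. The NZO/HlLtJ libraries ran from 0 through 0.0222 to 0.151. The 8 NZO/HlLtJ libraries held 9 counts together, 3 of them none at all and 1 of them 5 counts. Against C57BL/6J, the lower of the other means, the pooled NZO/HlLtJ level was 109-fold lower, with a 95% Poisson interval of 57.7 to 239 that covers counting error only. Zfp607 has a close relative 151 kb away, C030039L03Rik, named Zfp607b in the GENCODE M21 annotation, so the division of reads between them is uncertain. The relative also met the level and ratio, and was left out for its symbol. It averaged 1.53 CPM in C57BL/6J, 1.45 in CAST/EiJ and 0.249 in NZO/HlLtJ (17.2% of the lower mean). The zinc finger genes between them, Zfp60, Zfp626 and Zfp59, stood at 116%, 96.1% and 240% of the lower mean. Zfp59, 1089 bases from Zfp607, averaged 4.64, 1.76 and 4.21 CPM in the same order. On the other side, 1930 bases away, the processed pseudogene RP23-73F23.5 averaged 0.845 and 0.942 CPM and had 0 counts in all NZO/HlLtJ libraries. With 3 counts per library as the floor, it was at least 10.7-fold lower there.

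The sequence just upstream of the start was examined as reference context for the genes with the lowest ratios. RefSeq, on the GRCm38.p6 assembly, which represents C57BL/6J, gave start sites for 10 of the 13 genes, in 15 windows. Slc16a7, Hsbp1l1 and RP23-225M4.1 were not matched. The stretches of Zfp607 (chr7:27860335-27860584, plus strand), Nxpe4 (chr9:48361791-48362040, plus strand) and Fggy (chr4:95557257-95557506, plus strand) are the 250 bases before the RefSeq start. That of Tceanc2 is not printed because annotated exons lie in it. The stretches are printed 5′ to 3′ in lower case, with the CCAAT box, or ATTGG where it lies on the other strand, in capitals. For Zfp607 the RefSeq start lies 3058 bases inside the gene as annotated in GENCODE M21. For Nxpe4 it lies 200018 bases inside, at the start the authors give. Fggy has another RefSeq window, without CCAAT, which is not printed.
Zfp607: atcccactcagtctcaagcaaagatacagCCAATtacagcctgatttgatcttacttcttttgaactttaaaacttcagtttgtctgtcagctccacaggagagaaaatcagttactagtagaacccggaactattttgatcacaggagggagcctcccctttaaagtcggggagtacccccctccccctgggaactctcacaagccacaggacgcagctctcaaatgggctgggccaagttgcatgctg
Nxpe4: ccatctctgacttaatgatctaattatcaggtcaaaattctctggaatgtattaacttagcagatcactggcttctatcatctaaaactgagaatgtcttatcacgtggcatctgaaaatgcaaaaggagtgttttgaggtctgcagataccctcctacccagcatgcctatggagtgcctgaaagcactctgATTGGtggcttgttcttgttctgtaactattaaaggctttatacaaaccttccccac
Fggy: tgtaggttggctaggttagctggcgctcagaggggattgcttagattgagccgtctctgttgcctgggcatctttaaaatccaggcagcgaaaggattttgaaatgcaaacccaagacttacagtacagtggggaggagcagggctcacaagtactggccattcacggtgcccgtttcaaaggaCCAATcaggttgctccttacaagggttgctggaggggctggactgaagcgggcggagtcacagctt
The match began 221 bases before the start in Zfp607, 57 in Nxpe4 and 66 in Fggy. CCAAT, searched on both strands, stood in 9 of the 15 windows, which belong to 8 of the 10 genes, and in 33.8% of the 32851 RefSeq windows of the same length. TATAAA, searched likewise, stood in 1 of the 15 windows, that of Nxpe4, and in 12.4% of all. The stretch of Nxpe4 held 1 CpG, that of Zfp607 3 and that of Fggy 7, against a median of 6 over all windows. These are letters of the reference strain, and the alleles of NZO/HlLtJ were not analysed here.

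Rsl1 (ENSMUSG00000058900, chromosome 13, 67173207 to 67183126, plus strand), the other zinc finger gene, is known as a repressor of male-specific genes in liver. Its C57BL/6J libraries ran from 2.05 through a median of 2.26 to 2.62 CPM, those of CAST/EiJ from 1.70 through 2.02 to 2.21, and those of NZO/HlLtJ from 0.369 through 0.517 to 0.607. The NZO/HlLtJ mean was 24.9% of the lower mean, close to the limit of the choice. Rsl1 sits in a cluster of related zinc finger genes that can share reads, which makes its count uncertain. Within 250 kb, 12 genes with a Zfp symbol were counted, of which 7 averaged at least 1 CPM in both other strains. Their NZO/HlLtJ means were 54.6% to 152% of the lower mean, with a median of 94.6%. The lowest of these, Zfp429, averaged 1.57, 1.23 and 0.672 CPM in C57BL/6J, CAST/EiJ and NZO/HlLtJ. The highest, Zfp759, averaged 4.99, 5.06 and 7.58 CPM in C57BL/6J, CAST/EiJ and NZO/HlLtJ.

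Tceanc2 (ENSMUSG00000028619, chromosome 4, 107134155 to 107179116, minus strand) encodes a protein with domains of the transcription elongation factor TFIIS. It was tightly grouped within each strain: 10.1 to 11.8 CPM with a median of 10.7 in C57BL/6J, 9.17 to 11.3 with a median of 9.91 in CAST/EiJ, and 0.520 to 0.957 with a median of 0.652 in NZO/HlLtJ. The lowest library of the other strains was 9.58-fold above the highest of NZO/HlLtJ, and the means differed 14.8-fold. Tmem59, a gene for a membrane protein of the Golgi, overlaps Tceanc2 on the opposite strand, and its RefSeq start lies 264 bases from that of Tceanc2. Tmem59 averaged 88.57, 79.98 and 93.89 CPM in C57BL/6J, CAST/EiJ and NZO/HlLtJ. Whether the counting used strand is not given in the sources used here, so reads of the overlap cannot be told apart. The 4 related genes Tcea1, Tcea2, Tcea3 and Tceanc stood at 88.95% to 122.9% of the lower mean in NZO/HlLtJ.

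Ifi205 (ENSMUSG00000054203, chromosome 1, 174011998 to 174031810, minus strand) belongs to the HIN-200 family of interferon-inducible nuclear proteins, several of which bind DNA. Relative to its mean it varied the most of the 13 among the libraries of C57BL/6J and among those of CAST/EiJ. The C57BL/6J libraries ran from 3.89 through a median of 9.57 to 15.9 CPM, those of CAST/EiJ from 2.71 through 8.17 to 12.4, and those of NZO/HlLtJ from 0.126 through 1.24 to 2.55. The highest NZO/HlLtJ library and the lowest of the others were thus only 1.06-fold apart, although the means differed 6.14-fold. The counts of Ifi205 were in part not whole, and the family consists of similar copies side by side, so its count is uncertain. Ifi204 and Ifi203, of the same family and within 250 kb, did not share the pattern. Ifi204 averaged 6.89, 2.23 and 9.75 CPM in C57BL/6J, CAST/EiJ and NZO/HlLtJ, and Ifi203 46.6, 35.5 and 30.3 CPM. The NZO/HlLtJ libraries of Ifi204 overlapped those of C57BL/6J and lay above those of CAST/EiJ. Those of Ifi203 overlapped CAST/EiJ and lay under C57BL/6J, at 26.5 to 35.0 against 41.2 to 54.2 CPM. Macrophages express many genes of this family, and macrophage markers had summed levels of 209 to 315 CPM in NZO/HlLtJ libraries and 228 to 302 CPM in the others, and all 8 markers averaged at least 1 CPM in each strain.

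Since Ifi205 is interferon-inducible, its upstream stretch was searched on both strands for GAAA, any 2 bases and GAAA again, the core of interferon-stimulated response elements. The stretch printed is chr1:174031811-174032005 (GRCm38.p6, minus strand, 195 bases that end 56 bases before the RefSeq start), with the match in capitals.
Ifi205: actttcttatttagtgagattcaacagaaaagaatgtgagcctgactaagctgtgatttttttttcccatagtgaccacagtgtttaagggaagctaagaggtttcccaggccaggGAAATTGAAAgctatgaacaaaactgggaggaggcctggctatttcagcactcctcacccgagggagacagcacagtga
The match began 134 bases before the start. It was the 1 such match in the 15 windows of the 10 genes, and 2.98% of all RefSeq windows held one. The stretch has 1 CpG.

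Hsbp1l1 (ENSMUSG00000078963, chromosome 18, 80229758 to 80247102, minus strand) encodes a small protein similar to heat shock factor binding protein 1. It was low in all strains, at 0.906 to 1.69 CPM with a median of 1.24 in C57BL/6J and 1.01 to 2.08 with a median of 1.52 in CAST/EiJ. NZO/HlLtJ libraries ran from 0.0536 through 0.219 to 0.277 CPM, on 2 to 13 counts each. Hsbp1 itself averaged 46.6, 48.3 and 48.9 CPM in C57BL/6J, CAST/EiJ and NZO/HlLtJ, so the low level of the related gene did not extend to it.

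Fbxo44 (ENSMUSG00000029001, chromosome 4, 148152800 to 148160482, minus strand) encodes an F-box protein, the subunit that picks substrates for SCF ubiquitin ligases. C57BL/6J libraries ran from 8.05 through a median of 9.07 to 10.3 CPM, those of CAST/EiJ from 15.1 through 17.1 to 20.3, and those of NZO/HlLtJ from 0.965 through 1.62 to 1.90. All 3 strains were apart, with CAST/EiJ at 1.87 times the mean of C57BL/6J and NZO/HlLtJ at 16.4% of it. Fbxo6, a gene of the same subfamily 660 bases away, averaged 15.6, 17.3 and 20.1 CPM in C57BL/6J, CAST/EiJ and NZO/HlLtJ. Fbxo2, 139 bases to the other side, stayed under 1 CPM in all of them, at 0.170, 0.133 and 0.157. For Fbxo6 the NZO/HlLtJ libraries, at 19.1 to 21.3 CPM, lay above all those of the other strains, at 13.8 to 18.4.

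Among the genes of metabolism, Fggy (ENSMUSG00000028573, chromosome 4, 95557507 to 95926939, plus strand), a carbohydrate kinase of the FGGY family, was the lowest relative to the other strains. Its libraries ran from 2.95 through a median of 3.56 to 3.92 CPM in C57BL/6J, from 4.65 through 5.97 to 7.35 in CAST/EiJ, and from 0.129 through 0.275 to 0.482 in NZO/HlLtJ. The NZO/HlLtJ mean was 8.24% of that of C57BL/6J, on 89 counts in all. Kinases with related substrates were not low in this way. Gk, for glycerol, averaged 30.4, 38.1 and 29.6 CPM in C57BL/6J, CAST/EiJ and NZO/HlLtJ, Khk, for fructose, 5.403, 6.255 and 4.763, and Rbks, for ribose, 1.08, 2.06 and 0.991.

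Slc16a7 (ENSMUSG00000020102, chromosome 10, 125226464 to 125328963, minus strand) encodes MCT2, a transporter with high affinity for pyruvate, lactate and ketone bodies. C57BL/6J libraries ran from 5.62 through a median of 7.57 to 8.77 CPM, those of CAST/EiJ from 6.07 through 8.57 to 12.3, and those of NZO/HlLtJ from 1.13 through 1.58 to 2.14. The NZO/HlLtJ mean was 22.2% of that of C57BL/6J. Slc16a1, which encodes MCT1, the transporter abundant in heart muscle, averaged 237, 282 and 222 CPM in C57BL/6J, CAST/EiJ and NZO/HlLtJ (93.6% of the lower mean). Over the 8 other genes of the Slc16a family that reached 1 CPM in both strains, Slc16a1 included, the NZO/HlLtJ mean was 73.1% to 189% of the lower mean. No counted gene at that level lies within 250 kb of Slc16a7.

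Igfals (ENSMUSG00000046070, chromosome 17, 24878770 to 24882008, plus strand) encodes the acid-labile subunit, which binds IGF1 and its binding proteins in a ternary complex in blood and is made mainly in liver. Its heart level was 2.23 to 4.26 CPM with a median of 3.54 in C57BL/6J, 2.67 to 4.55 with a median of 3.44 in CAST/EiJ, and 0.357 to 1.26 with a median of 0.519 in NZO/HlLtJ. The NZO/HlLtJ mean was 20.04% of that of C57BL/6J. The partners of the complex did not follow. Igf1 averaged 16.8, 18.9 and 17.3 CPM in C57BL/6J, CAST/EiJ and NZO/HlLtJ and Igfbp3 21.5, 26.3 and 39.9. Of 10 ligand, receptor and binding protein genes counted, 9 reached 1 CPM in both other strains, and all of these stood at 99.3% to 254% of the lower mean in NZO/HlLtJ, the highest being Igf2 at 44.0, 56.8 and 112 CPM. Nubp2, 603 bases away from Igfals, averaged 7.63, 10.3 and 7.88 CPM in C57BL/6J, CAST/EiJ and NZO/HlLtJ.

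Nxpe4 (ENSMUSG00000044229, chromosome 9, 48362041 to 48400025, plus strand), a gene of the neurexophilin and PC-esterase family, ran from 6.11 through a median of 7.48 to 8.49 CPM in C57BL/6J, from 9.43 through 11.14 to 16.01 in CAST/EiJ, and from 0.252 through 0.354 to 0.670 in NZO/HlLtJ. The NZO/HlLtJ mean was 5.36% of that of C57BL/6J. Its neighbour of the same family, Nxpe2, 8587 bases away on the other strand, was also lower: 2.48, 1.92 and 0.873 CPM on average in C57BL/6J, CAST/EiJ and NZO/HlLtJ, with no overlap of libraries. At 45.4% of the lower mean Nxpe2 did not meet the ratio of the choice.

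The 3 genes without a known protein had different profiles. AI506816 (ENSMUSG00000105987, chromosome 5, 23698296 to 23712667, minus strand), a processed transcript, stepped down across the strains from 17.1 to 22.2 CPM with a median of 20.9 in C57BL/6J, to 5.75 to 7.35 with a median of 6.60 in CAST/EiJ, and 0.852 to 1.74 with a median of 1.26 in NZO/HlLtJ. RP23-225M4.1 (ENSMUSG00000109052, chromosome 7, 99202366 to 99227080, plus strand), named Gm45012 in GENCODE M21, is annotated as antisense and overlaps Mogat2, a gene of triglyceride synthesis on the other strand. It ran from 4.23 through a median of 4.67 to 5.82 CPM in C57BL/6J and from 2.82 through 3.07 to 4.17 in CAST/EiJ. All 8 NZO/HlLtJ libraries had 0 counts, which is at least 40.5-fold lower than CAST/EiJ with a floor of 3 counts per library, or 0.0786 CPM. Mogat2 averaged 0.228, 0.177 and 0.0464 CPM in C57BL/6J, CAST/EiJ and NZO/HlLtJ, and without strand its reads and those of RP23-225M4.1 cannot be told apart. Dgat2, the next gene at 1 CPM or more, 19.6 kb away and also a gene of triglyceride synthesis, averaged 207, 210 and 179 CPM.

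Crnde (ENSMUSG00000031736, chromosome 8, 92326038 to 92356120, minus strand) is a long noncoding RNA gene next to Irx5, a homeobox gene active in ventricular muscle. Crnde ran from 0.864 through a median of 1.12 to 1.89 CPM in C57BL/6J, from 0.792 through 1.05 to 1.60 in CAST/EiJ, and from 0.134 through 0.279 to 0.428 in NZO/HlLtJ. Irx5, 1676 bases away, averaged 4.71, 6.56 and 3.27 CPM in C57BL/6J, CAST/EiJ and NZO/HlLtJ (69.4% of the lower mean). Its NZO/HlLtJ libraries overlapped those of C57BL/6J and lay under those of CAST/EiJ, at 2.76 to 4.23 against 4.50 to 7.94 CPM. The 5 Irx genes counted stood at 69.4% to 233% of the lower mean.

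Crnde, Rsl1 and Slc16a7 were the last inside the limit of 1/4, at 24.96%, 24.89% and 22.16%. Just outside stood Srp54a at 25.7%, Hist2h2aa1 at 27.7% and Gsta1 at 28.1%. Within females alone all 13 genes were at or under 25%, within males 11, at 10% fat 11 and at 44% fat 12. The sample identifiers fall into 3 number ranges, here called 76xx, 80xx and 89xx, and none of the 8 libraries of the 76xx range is from NZO/HlLtJ. Both NZO/HlLtJ libraries of each sex and diet lie in the same range. In the second libraries of the groups the ranges go with diet in CAST/EiJ and with sex in C57BL/6J. Within the 80xx range the ratios were 0% to 29.7% and within the 89xx range 0% to 32.9%, with 10 and 12 of the 13 genes at or under 25%. The genes over 25% were Slc16a7, Rsl1 and Igfals in the 80xx range and Crnde in the 89xx range. The subsets by sex, diet and range are parts of the libraries that chose the genes. Their counts are description and no separate support.

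**Figure D2:**
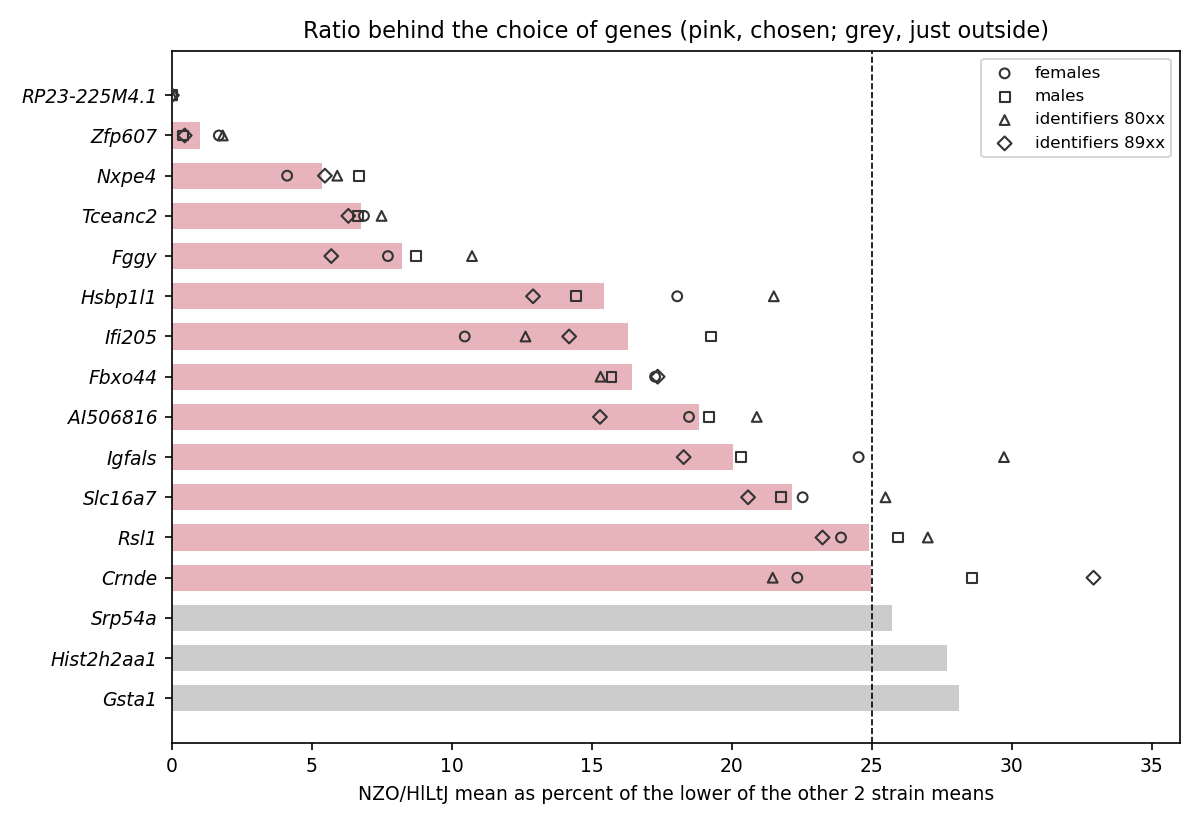
Mean of NZO/HlLtJ as a percent of the lower of the other strain means (bars, 8 libraries per strain), with the same ratio in females, males and the identifier ranges 80xx and 89xx as open symbols and the limit of 25% as a dashed line. RP23-225M4.1 is at 0, and the ratios of Igfals, Slc16a7, Rsl1 and Crnde cross the limit in part of the libraries.

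C57BL/6J and CAST/EiJ, which both express the 13 genes, also differed from each other in part of them. For 5 of the genes their libraries were apart, and for the rest they overlapped. Many of all genes showed such separation, so nothing particular to the 13 is read from it. CAST/EiJ was higher for Fbxo44 (1.87-fold), Fggy (1.72-fold) and Nxpe4 (1.61-fold), a direction without overlap found in 20.2% of the 12350 genes. C57BL/6J was higher for AI506816 (3.13-fold) and RP23-225M4.1 (1.49-fold), which 10.4% of the genes showed. Per kilobase of annotated exons, the levels in C57BL/6J ran from 0.592 CPM per kb for Crnde to 4.63 for AI506816. In NZO/HlLtJ the highest level per kilobase was that of Fbxo44 at 0.497 CPM per kb, followed by Ifi205 at 0.285 and AI506816 at 0.279. The libraries of Ifi205 and AI506816 overlapped there.

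The genes around the 13 that reached 1 CPM were mostly near the level of the other strains. Neighbours under 1 CPM, some of them named above, are not counted here. Within 250 kb, 93 genes averaged at least 1 CPM in both C57BL/6J and CAST/EiJ, and their NZO/HlLtJ means had a median of 104% of the lower mean, against 109% for all 12350 genes. The 3 symbols not reported here were left out of the neighbours. Of the 93, 2 were at or under 50%, which are C030039L03Rik beside Zfp607 and Nxpe2 beside Nxpe4 (2.15%, against 0.729% of all genes). For 3 of the 13 genes another counted gene overlaps. By the symbols searched, no family held more than 1 of the 13, and Rsl1, also a zinc finger gene, has no such symbol. Zinc finger symbols held 1 of 365 genes at 1 CPM or more in both other strains, and solute carriers and transporters 1 of 245. Interferon-inducible and Trim symbols, searched together, held 1 of 66 and F-box genes 1 of 46, against 0.105% of all genes at that level. The median of these families in NZO/HlLtJ was 104%, 113%, 114% and 113% of the lower mean.

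**Figure D3:**
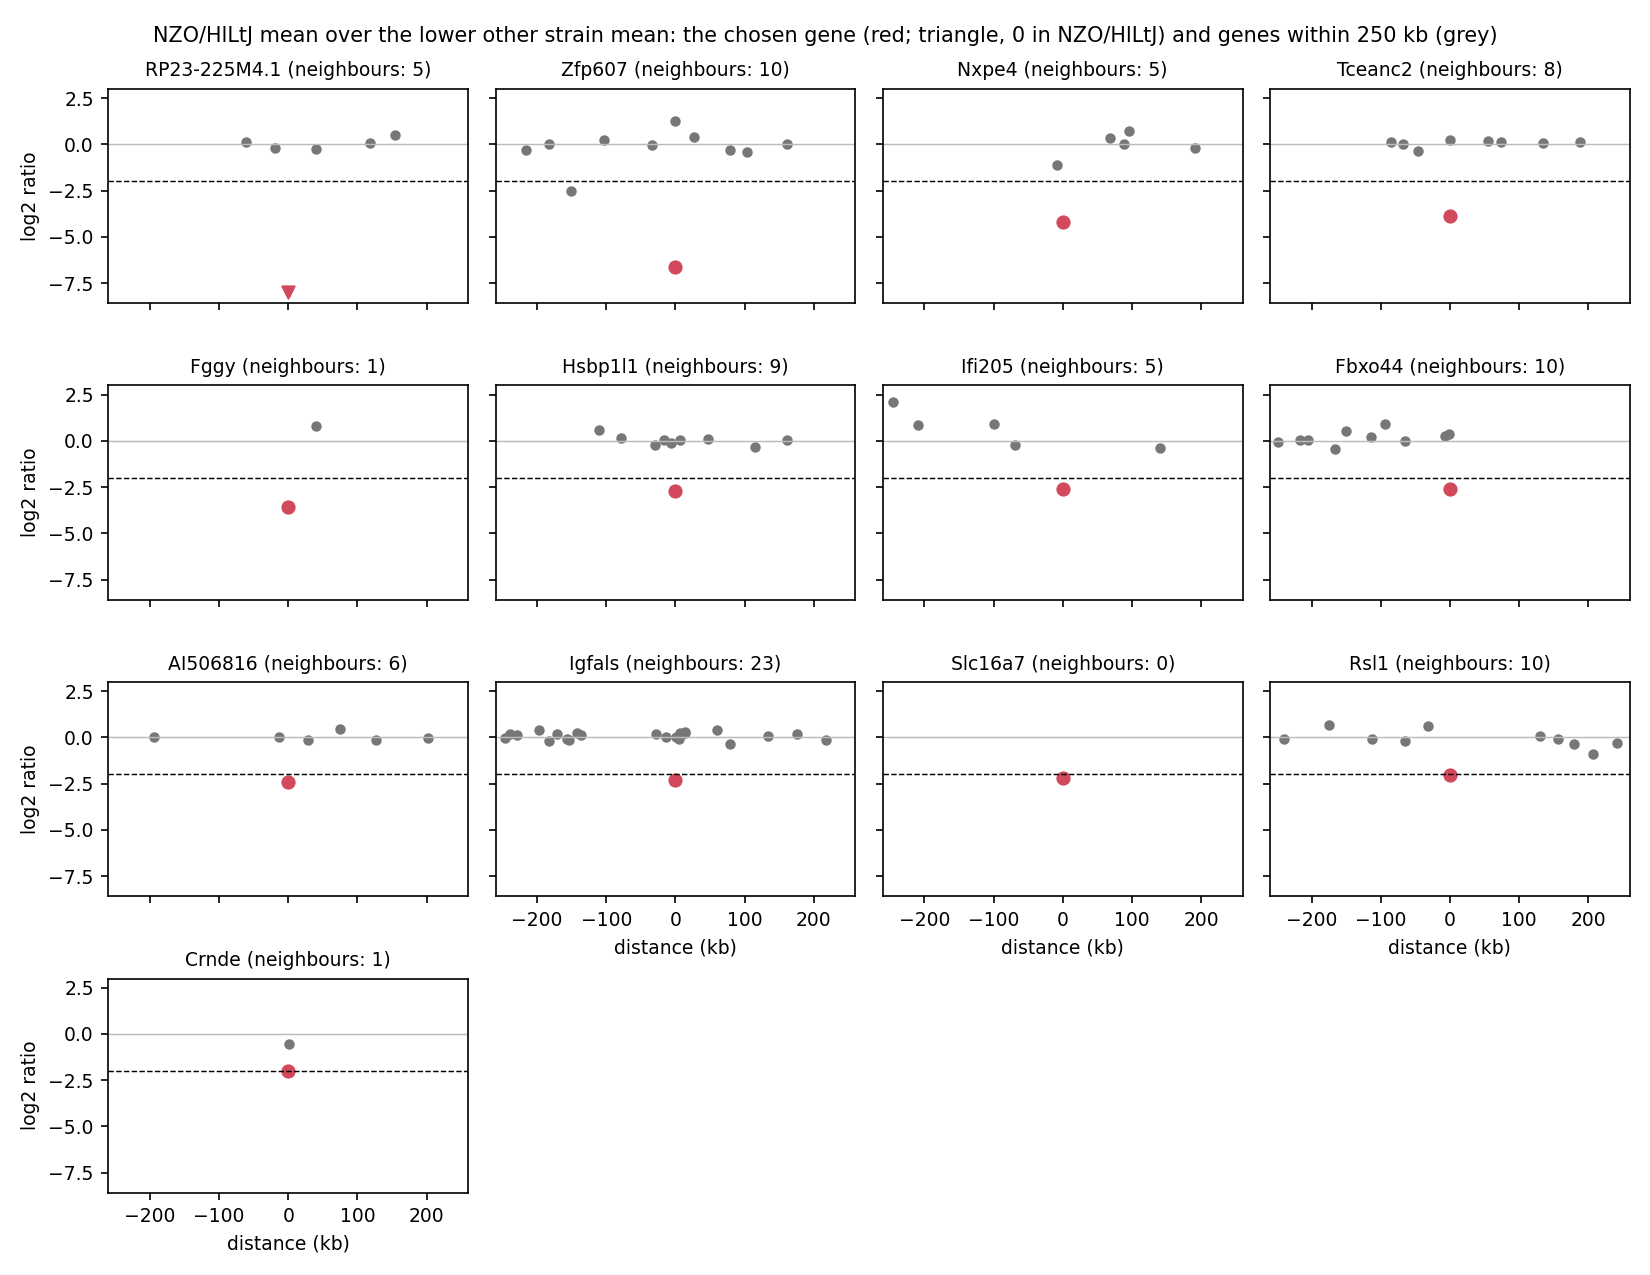
Log2 ratio of the NZO/HlLtJ mean to the lower of the other strain means for each of the 13 genes (red, at distance 0; triangle for 0 counts in NZO/HlLtJ) and for genes at 1 CPM or more within 250 kb (grey), by distance in kb between gene ends. The dashed line is a ratio of 1/4, and the 1 grey point under it is C030039L03Rik beside Zfp607.

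Diet and sex were not used in the choice and were tested for all 13 genes in one edgeR quasi-likelihood model over 17203 genes, with Benjamini-Hochberg adjustment over all of them. Of the 13 genes, 0 were called for diet in C57BL/6J (0.0407% of all genes were), 0 in CAST/EiJ (0%), 0 in NZO/HlLtJ (0%) and 0 over C57BL/6J and CAST/EiJ together (0.0814%). At an unadjusted p under 0.05, edgeR gave 1, 0, 2 and 1 of them, against 5.62%, 6.61%, 7.17% and 5.95% of all genes tested. DESeq2 called 0 of them in each, against 0.186%, 0.138%, 0.0525% and 0.253% of the 20961 genes. Genes to which DESeq2 gave no adjusted p count here as not called. Among them are Slc16a7 for diet in C57BL/6J and Igfals for diet in NZO/HlLtJ. The median log2 change of the 13 at 44% over 10% fat was -0.03 in C57BL/6J, -0.07 in CAST/EiJ and -0.05 in NZO/HlLtJ, against 0.00, -0.01 and -0.01 over all genes. For the effect of sex, 0 were called over C57BL/6J and CAST/EiJ (0.203% of all genes), 0 in NZO/HlLtJ (0.134%) and 0 for the difference of the sex effect between CAST/EiJ and C57BL/6J (0%). At an unadjusted p under 0.05 edgeR gave 2 of them in each of these, against 8.83%, 7.03% and 5.95% of all genes tested. DESeq2 called 0, 1 and 0 of them, against 0.539%, 0.286% and 0.0525% of the 20961 genes. It gave no adjusted p for Igfals and Hsbp1l1 in the last of these. The medians of the 13 at male over female were -0.05 over C57BL/6J and CAST/EiJ and -0.09 in NZO/HlLtJ, against 0.00 over all genes in both. With the low counts in NZO/HlLtJ, changes there were measured with wide errors.

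**Figure D4:**
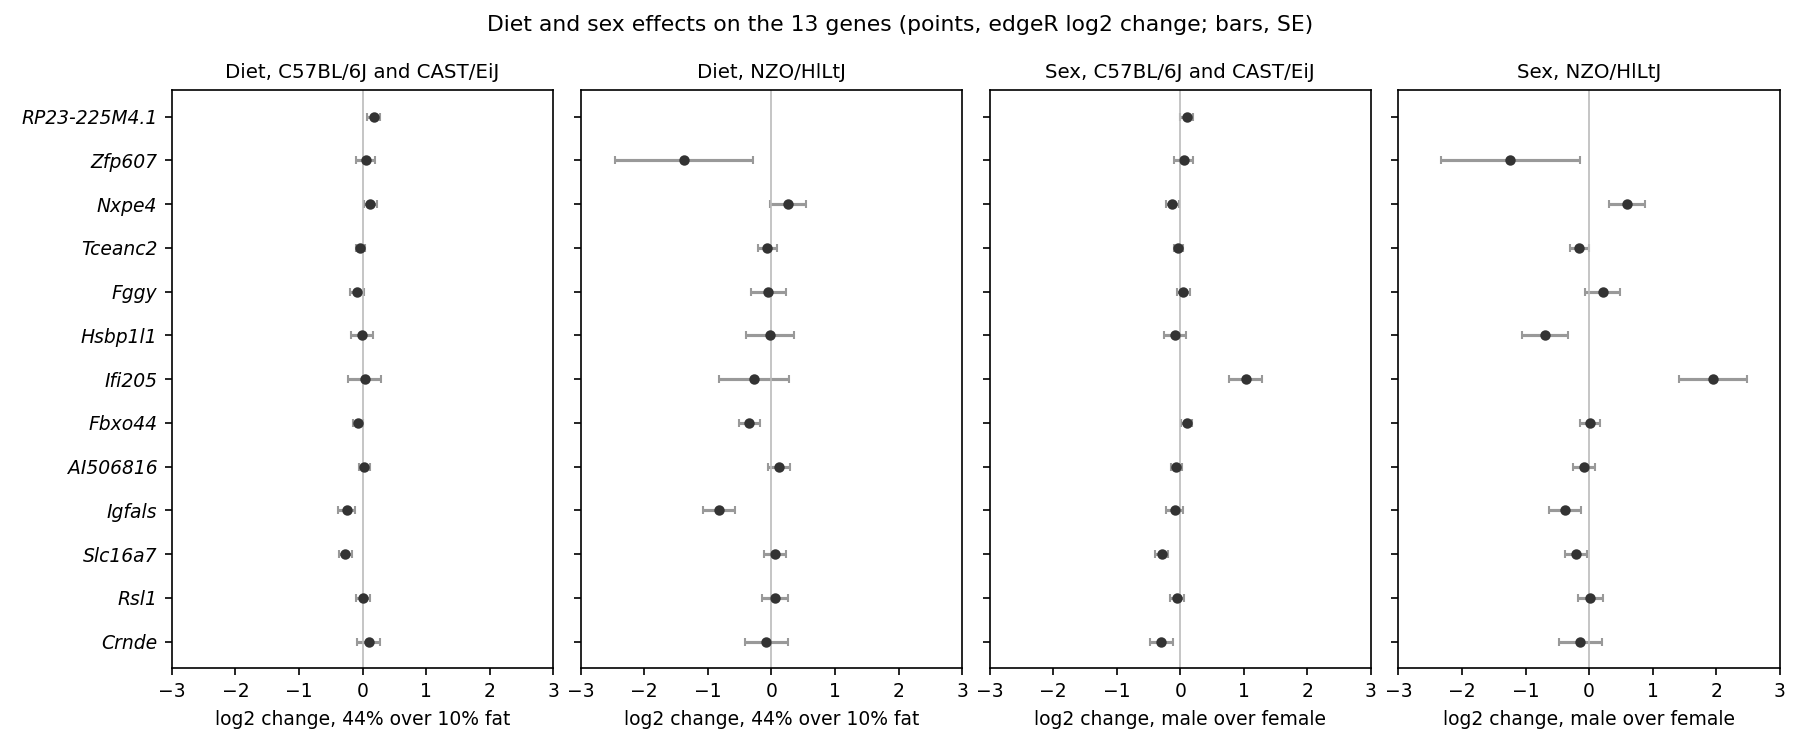
Log2 changes with their SE from the edgeR fit, for diet (44% over 10% fat) and sex (male over female), over C57BL/6J and CAST/EiJ together and in NZO/HlLtJ, with genes ordered by their ratio. RP23-225M4.1, at 0 counts in NZO/HlLtJ, has no point there, and Ifi205 has the highest change for sex in both panels.

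Ifi205 was the gene of the 13 with the highest sex difference, males being above females. In C57BL/6J, females ran from 3.89 to 8.28 CPM and males from 10.9 to 15.9. In NZO/HlLtJ, females ran from 0.126 to 1.21, on 5 to 40 counts each, and males from 1.27 to 2.55. The sexes were apart in both of these strains, whereas in CAST/EiJ females at 2.71 to 9.12 CPM overlapped males at 8.05 to 12.4. The log2 change of male over female was 1.03 over C57BL/6J and CAST/EiJ (SE 0.26, edgeR adjusted p = 0.172) and 1.95 in NZO/HlLtJ (SE 0.53, edgeR adjusted p = 0.385), and DESeq2 gave 1.92 with an adjusted p of 0.0275 in NZO/HlLtJ. Averaged over all 3 strains, a contrast added after these values were seen, Ifi205 was higher in males by 1.34 (SE 0.25, edgeR adjusted p = 0.0353), and it was the 1 gene of the 13 called, with 0.372% of all genes. This call was kept when 1 of 7 libraries was left out and lost without any 1 of the other 17, the adjusted p running from 0.00454 to 0.107. The libraries without which it was kept are both CAST/EiJ females and both NZO/HlLtJ females at 10% fat, the second C57BL/6J female at 10% fat, the second CAST/EiJ female at 44% fat and the second NZO/HlLtJ male at 44% fat.

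Other genes had an unadjusted p under 0.05 or libraries without overlap for diet or sex, and none of these passed the adjusted threshold. The share of all genes with such separation by diet or sex was not computed. The separations, those of Ifi205 included, are therefore given as description only. Slc16a7 in C57BL/6J ran from 7.93 to 8.77 CPM at 10% fat and from 5.62 to 7.22 at 44% fat, with no overlap (log2 change -0.38, SE 0.14, edgeR adjusted p = 0.768). Over C57BL/6J and CAST/EiJ its change was -0.27 for diet (adjusted p = 0.642) and -0.29 for male over female (adjusted p = 0.35), both from edgeR. With the identifier range as a covariate, edgeR gave -0.18 (adjusted p = 0.788) and -0.37 (adjusted p = 0.156). In CAST/EiJ its females, at 8.66 to 12.3 CPM, lay above its males at 6.07 to 8.48. AI506816 in C57BL/6J ran from 21.3 to 22.2 CPM at 10% fat and from 17.1 to 20.5 at 44% (log2 change -0.13, SE 0.12, edgeR adjusted p = 0.967). In NZO/HlLtJ, Fbxo44 had a log2 change of -0.35 for diet (SE 0.16, edgeR adjusted p = 0.69) and Nxpe4 of 0.59 for male over female (SE 0.28, edgeR adjusted p = 0.708). Igfals in NZO/HlLtJ ran from 0.357 to 1.26 CPM at 10% fat and from 0.369 to 0.541 at 44%, which overlap (log2 change -0.82, SE 0.25, edgeR adjusted p = 0.594). In C57BL/6J, Igfals was at 3.56 to 4.26 CPM in females and 2.23 to 3.53 in males, and Hsbp1l1 at 1.35 to 1.69 and 0.906 to 1.12. Both overlapped in CAST/EiJ, and the difference of the sex effect between the strains was 0.84 for Igfals (SE 0.27, edgeR adjusted p = 0.717) and 0.94 for Hsbp1l1 (SE 0.34, edgeR adjusted p = 0.762).

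**Figure D5:**
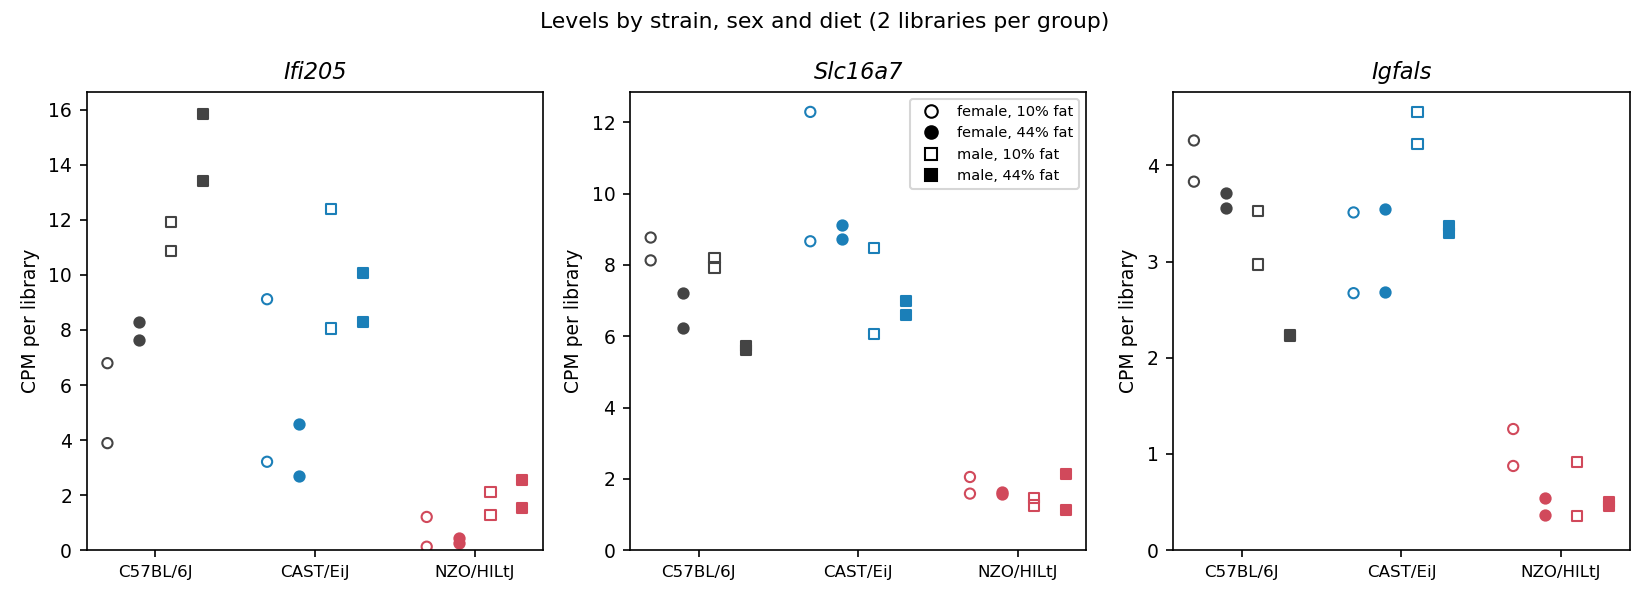
CPM of Ifi205, Slc16a7 and Igfals in each library by strain, with circles for females, squares for males, open symbols for 10% fat and filled for 44% fat. Males lie above females for Ifi205 in C57BL/6J and NZO/HlLtJ, and the 44% fat libraries of C57BL/6J lie under those at 10% fat for Slc16a7.

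Markers were summed to compare the make-up of the hearts. The 10 cardiomyocyte markers summed to 55580 to 68820 CPM over all libraries, with overlap between all strains, and each averaged at least 1 CPM in each strain. In 3 of the 15 marker lists the NZO/HlLtJ sums lay above those of all other libraries, and in 0 below. The 10 fibroblast markers summed to 1596 to 2159 CPM in NZO/HlLtJ and 998 to 1425 in the other strains. The 6 skeletal muscle markers counted summed to 2543 to 4753 against 1277 to 1700 CPM, with 4 of them under 1 CPM in each strain. These sums come almost wholly from the remaining markers, so a difference in skeletal muscle content is not shown. The 6 Schwann cell and nerve markers summed to 20.7 to 27.3 against 11.7 to 19.6 CPM. Smooth muscle and pericyte markers summed to 1001 to 1157 in NZO/HlLtJ, under all C57BL/6J libraries at 1227 to 1436 and overlapping CAST/EiJ at 1132 to 1341. The part of these differences in the levels of the 13 genes was not tested.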

How the data were processed

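The authors deposited expected counts for each gene and library, that is estimates of read numbers, of which 19.3% were not whole (tolerance 1e-06). Values under 1e-06 were set to 0. The submitters' processing notes name GRCm38 and DESeq2 with no role. Not given in the sources used here are the aligner, the counting program, its use of strand and whether reads of each strain were matched to C57BL/6J sequence, and reads of genes with similar or overlapping copies could be divided differently between strains. Per the labels' protocols, polyadenylated RNA was read as paired ends of 100 bases.

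CPM were computed from the expected counts and their column totals (30205073 to 52254058) with pandas 2.3.3 in Python 3.11.15. For tests the counts were rounded and fitted with edgeR 4.0.16 in R 4.3.3 (TMM factors 0.954 to 1.06, filterByExpr with min.count at 10 and min.total.count at 15, 17203 genes kept and 3758 removed, a mean for each of the 12 groups, robust quasi-likelihood tests, calls at an adjusted p under 0.05). All 13 genes passed the filter. DESeq2 1.42.0 was an alternative, and the fit was checked on simulated counts. Groups were taken from the labels, and replicates were numbered in accession order, which pairs none. Replicate libraries differed by more than sampling noise (chi-square over degrees of freedom from 11.6 to 68.4), and each was counted once. Gene positions are the authors' own on GRCm38, and biotypes and exon lengths are from GENCODE M21, which held 20840 of the 20961 identifiers and all 13 genes. The genes described, the related genes and the marker and family lists were chosen with earlier results of these data known. All 13 genes are named with values, which includes those the rule for named genes selects (the highest levels, the lowest ratios, the largest differences between C57BL/6J and CAST/EiJ, and the 3 genes on each side of the limit). Intervals and floors cover counting error only. Variance-stabilized log2 values, which the authors also deposited, were not used.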

Additional observations from a re-analysis of the deposited data

Results flagged for a closer look

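Each of the 13 genes was screened in each strain for a library that stands apart from the other 7, by the gap to the nearest library over the whole range (critical value 0.526). Of 38 sets of 8 libraries, 4 had one, and chance alone gives about 1 in 20. Zfp607 stood at 0.151 CPM, on 5 counts, in the first NZO/HlLtJ female library at 10% fat, where the next was 0.0308. Crnde stood at 1.89 CPM in the first C57BL/6J female library at 44% fat, where the next was 1.30. AI506816 stood at 17.1 CPM in the first C57BL/6J male library at 44% fat, the nearest other being 20.2. RP23-225M4.1 stood at 4.17 CPM in the second CAST/EiJ female library at 44% fat, the nearest other being 3.30.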

How the results depend on the processing

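The number of genes low only in NZO/HlLtJ was 13, and it was 23 with a limit of 1/3 and 23 with a level of at least 0.5 CPM in place of 1 CPM. All 13 were kept in both cases. It was 9 with a limit of 1/5, 10 with a level of 2 CPM and 11 with TMM-scaled totals, where Crnde and Rsl1 were lost. Leaving out each of the 24 libraries in turn gave 11 to 15 genes, with all 13 kept in 14 of the 24 cases, and Crnde or Rsl1 or both lost in the others. The count of genes without overlap was 13 to 13 over the same 24, which had to be so, since leaving out a library cannot create overlap. For diet and sex the count of called genes stayed at 0 to 0 when each library was left out. It became 1, Ifi205, for sex in NZO/HlLtJ with DESeq2 (1.92, adjusted p = 0.0275), and 1, again Ifi205, when the sex effect was averaged over all 3 strains, which was chosen after seeing the data. Of 263 alternatives of these counts, 259 stayed at the main count or within 1.5 times of it. The 263 include the counts of genes without overlap in fewer libraries, which could not change. No paired analysis was possible because the labels carry no replicate numbers. Depth limits Zfp607, RP23-225M4.1 and Hsbp1l1 in NZO/HlLtJ, where libraries held at most 13 counts of each, and their diet and sex changes there rest on those counts. Crnde, at 5 to 15 counts per NZO/HlLtJ library, and Fggy, at 5 to 18, were little deeper. Ifi205 held 5 to 40 counts in the NZO/HlLtJ female libraries, so its sex change there also rests in part on low counts.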

Other observations

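Genes of airway lining entered the choice when the second NZO/HlLtJ female library at 10% fat was left out. They are named here after their values were seen. Cyp2f2, a cytochrome P450 of club cells, stood at 14.2 CPM in that library and at 0.0268 to 0.900 CPM in the other 7 of NZO/HlLtJ, with 0.0313 to 34.8 in C57BL/6J (median 0.263) and 0 to 20.3 in CAST/EiJ (median 0.389). Muc5b, a secreted mucin, stood at 6.14 CPM in it and 0 to 0.115 in the other 7, with 0 to 13.6 in C57BL/6J (median 0.131) and 0 to 7.18 in CAST/EiJ (median 0.113). Scgb3a1, a secretoglobin, stood at 1.96 CPM in it and 0.0825 to 0.241 in the other 7, with medians of 0.0648 and 0.125 in C57BL/6J and CAST/EiJ. For each of these genes the C57BL/6J and CAST/EiJ means of at least 1 CPM thus rested on part of the libraries, with medians of at most 0.389 CPM. The 13 genes described above stood at 0.792 CPM or more in every library of both strains.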
